A study of Homo sapiens with 10 samples.

Results

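The 45 genes described here make ribosomes or couple cell growth to them: factors that modify, cut and assemble ribosomal RNA in the nucleolus, subunits and partners of RNA polymerase I, the transcription factor gene MYC, and ODC1 and SRM, which encode enzymes of polyamine synthesis. They were taken by gene symbol from a table of 58302 genes, and all 45 were found and passed the filter on low values. The measurement was RNA sequencing of total RNA from KYSE-410 and KYSE-30, established human lines of squamous cell carcinoma of the esophagus. Cells were harvested 48 h after they received a small interfering RNA (siRNA). The 4 groups were KYSE-410 with siSHIP2 (3 libraries), KYSE-410 with siCT (3 libraries), KYSE-30 with siSHIP2 (2 libraries) and KYSE-30 with siCT (2 libraries). siSHIP2 is a single siRNA against INPPL1, which encodes the lipid phosphatase SHIP2, and siCT is an siRNA with no intended target. All groups carry an siRNA, and the labels do not say whether replicates are separate cultures, so p-values measure the spread between these libraries, which may be technical. Values from another siRNA against INPPL1 were not analysed here, so effects of this siRNA's sequence on other transcripts and effects of SHIP2 loss cannot be told apart.

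Ribosome production starts in the nucleolus, where RNA polymerase I copies the ribosomal DNA into a long precursor. Small nucleolar ribonucleoproteins (snoRNPs) guide methylation and pseudouridylation of that precursor, and large assemblies then fold and cut it into the RNAs of the small (40S) and large (60S) subunits. MYC is a transcription factor known to bind many promoters of this machinery in growing and cancerous cells, commonly at the E-box motif CACGTG, and it also drives the polyamine enzymes ODC1 and SRM.

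The deposited values are CPM, the count of a gene scaled to its library's total. Library totals before the authors' scaling were estimated from the values at 18.5 to 25.8 M reads, and the members lay between 23.5 and 1624 CPM, far above the floor of 3 scaled counts (about 0.15 CPM). INPPL1 was 44.7, 37.3 and 39.1 CPM in KYSE-410 with siSHIP2, against 107, 108 and 109 CPM with siCT (log2 fold change -1.402 ± 0.067 SE, limma adjusted p = 5.81e-10). In KYSE-30 it was 23.2 and 24.5 CPM with siSHIP2, against 39.9 and 36.2 CPM with siCT (-0.65 ± 0.08, adjusted p = 0.00077). The targeted transcript was therefore lower in every siSHIP2 library of both lines. Of 10 squamous markers, 9 reached 1 CPM in each group (KRT14 stayed below it in KYSE-410 and KRT5 in KYSE-30), 0 of 5 immune markers reached it in any group, and of 6 fibroblast markers 2 reached it in KYSE-410 with siSHIP2, 3 with siCT and 1 in each KYSE-30 group. The fibroblast markers did not all move one way in KYSE-410: LUM was 73.6 to 85.5 CPM with siSHIP2, against 94.2 to 117 CPM with siCT, and COL1A1 was 11.8 to 17.4 CPM, against 9.44 to 10.99 CPM with siCT. Both were called, and in KYSE-30 LUM was at 0 and COL1A1 at 5.60 to 6.44 CPM. Of 7 glandular markers, 2 reached 1 CPM in the KYSE-410 groups and 1 in the KYSE-30 groups. The squamous markers summed to 552 to 702 CPM in KYSE-410 with siSHIP2, against 784 to 826 CPM with siCT, and to 1545 to 1582 CPM in KYSE-30 with siSHIP2, against 1727 to 1846 CPM with siCT. Most of these sums came from ITGB4 and ITGA6, at 234 to 247 and 331 to 356 CPM in KYSE-410 with siCT. Of the 10 markers, 5 were called lower in KYSE-410, among them KRT5 (-1.79 ± 0.20) and KRT6A (-1.57 ± 0.14). In KYSE-30, 3 were called lower and 4 estimates were positive, and in neither line was any called higher. The glandular markers summed to 21.8 to 24.6 CPM in KYSE-410 with siSHIP2, against 14.2 to 16.8 CPM with siCT, and VIL1 alone made up 20.5 to 23.0 CPM with siSHIP2, against 12.2 to 14.1 CPM with siCT. MUC5AC, the other one at 1 CPM, was called lower (-0.37 ± 0.13, adjusted p = 0.027). Whether these shifts have a part in the results below was not tested. The 2 KYSE-30 siCT libraries stood apart from each other in the genes described here. Replicate 2 was above replicate 1 in 44 of 45 members, by a median of 0.17 on the log2 scale. Over all genes tested it was above in 50.6%. These 2 libraries are also the ends of the range of estimated totals, 18.5 M reads for replicate 1 and 25.8 M for replicate 2. Whether depth has a part in their difference was not tested. The calls in KYSE-30 are therefore also given without these libraries.

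In KYSE-410 most of these 45 genes were called lower after siSHIP2. Of the 45 members, 29 fell, 1 (RRN3) rose and 15 were not called, a call being an adjusted p under 0.05 in limma over all genes tested. Of the 20466 genes tested, 49.9% were called, 19.3% lower and 30.6% higher. The members' median log2 fold change was -0.21, against 0.07 over all genes tested, and 38 of the 45 were negative. All 3 siSHIP2 libraries were below all 3 siCT libraries for 32 members, above them for 4 (GAR1, NOP10, BYSL and RRN3), and the groups overlapped for 9, where 22.1% of all genes lay entirely below and 34.0% entirely above. Together the members made up 6429 ± 132 CPM with siSHIP2 and 7437 ± 171 CPM with siCT (SD, n = 3 each). Fewer cells with a transcript and less of it per cell cannot be told apart in bulk RNA. Counts depend on scaling, since 61.3% of all calls in this line were higher with CPM as deposited and 46.9% after scaling by the trimmed mean of M-values (TMM), which gave 36 members lower and 0 higher.

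**Figure D1:**
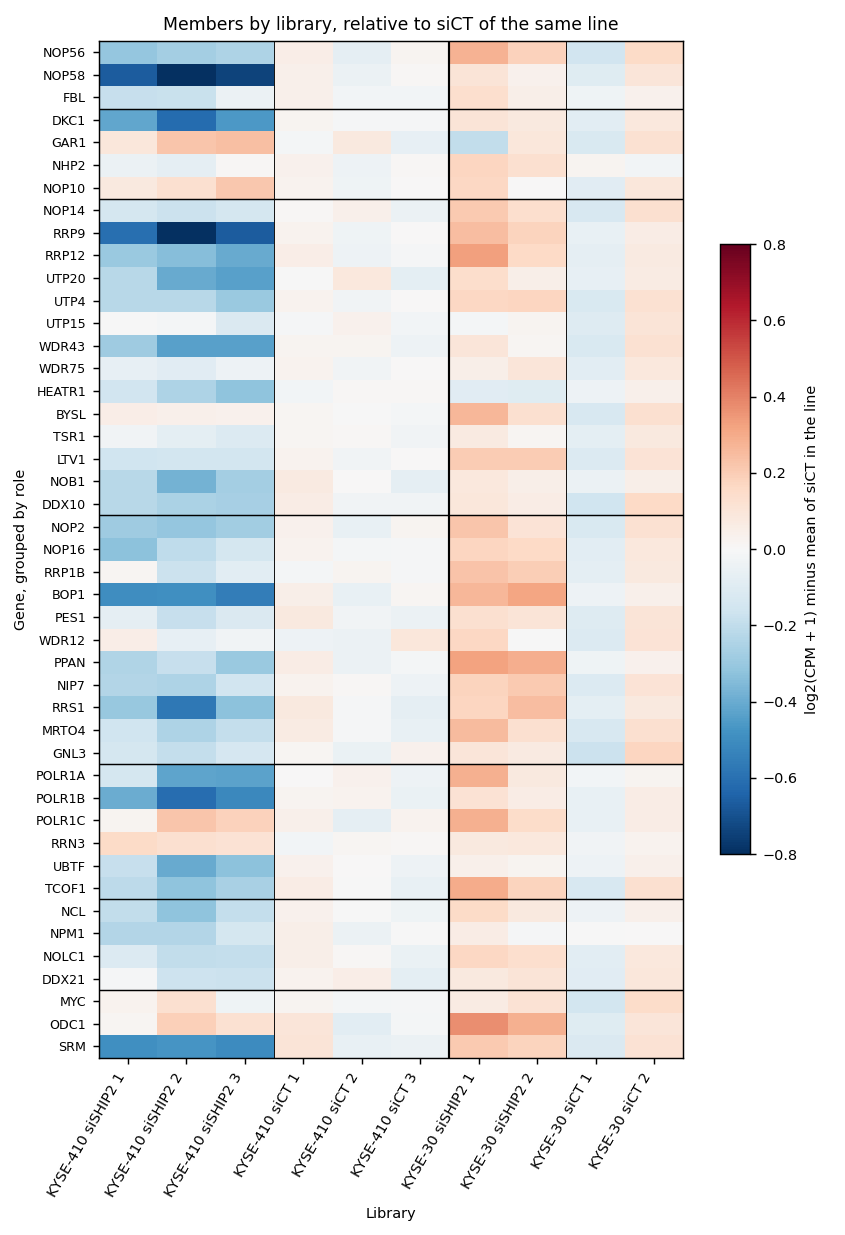
Heat map of log2(CPM + 1) of each member (rows, grouped by role) in each of the 10 libraries (columns), after subtraction of the mean of siCT in the same line; blue is lower and red higher. The 3 KYSE-410 siSHIP2 columns are blue for most rows, while the KYSE-30 siSHIP2 columns are mostly red and the KYSE-30 siCT columns split into a paler blue replicate 1 and a paler red replicate 2.

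The proximal promoters of 37 members were available from RefSeq (GRCh38.p14, 250 bases before to 50 bases after the transcript start), and those of NOP58, RRP12, RRP1B, BOP1, RRS1, TCOF1, NOLC1 and MYC were not. The E-box CACGTG, which reads the same on both strands, was present in 17 of the 37 genes (45.9%), against 12.1% of the genes tested that have a window and 8.79% of all genes with one. The variant CACGCG, searched on both strands and also where it overlaps a CACGTG, was in 14 of 37 (37.8%), against 21.4% and 13.5%. The windows of RRP9, SRM and WDR43 are shown because, of the members with an E-box in their window, these 3 had the smallest adjusted p in KYSE-410. The E-box is set in capitals. The E-box begins 5 bases before the annotated start in RRP9 (chr3:51941855-51942154, minus strand), 199 bases before it in SRM (chr1:11059969-11060268, minus strand) and 3 bases after it in WDR43 (chr2:28894417-28894716, plus strand).
RRP9: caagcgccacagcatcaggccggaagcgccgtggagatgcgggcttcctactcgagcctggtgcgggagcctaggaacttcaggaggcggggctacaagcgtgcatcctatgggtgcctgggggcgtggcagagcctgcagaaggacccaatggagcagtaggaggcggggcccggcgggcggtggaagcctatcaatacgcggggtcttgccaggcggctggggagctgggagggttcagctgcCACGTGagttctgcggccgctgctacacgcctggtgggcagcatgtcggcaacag
SRM: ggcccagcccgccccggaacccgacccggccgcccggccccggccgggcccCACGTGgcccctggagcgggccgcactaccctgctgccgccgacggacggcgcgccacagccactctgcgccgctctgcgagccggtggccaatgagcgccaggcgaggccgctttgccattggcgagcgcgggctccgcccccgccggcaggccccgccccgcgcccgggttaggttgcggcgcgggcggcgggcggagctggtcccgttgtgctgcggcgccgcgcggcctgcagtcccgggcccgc
WDR43: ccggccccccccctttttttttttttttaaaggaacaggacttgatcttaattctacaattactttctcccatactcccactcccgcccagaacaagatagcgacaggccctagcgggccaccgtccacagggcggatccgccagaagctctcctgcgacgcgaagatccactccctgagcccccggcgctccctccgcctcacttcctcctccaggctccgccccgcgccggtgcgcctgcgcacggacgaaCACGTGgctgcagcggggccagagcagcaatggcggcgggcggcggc
Of the 17 members with a CACGTG, 10 fell in KYSE-410 (median log2 fold change -0.15). Of the 20 with a window and no CACGTG 13 fell and 1 rose (median -0.23). Over all genes tested, 19.3% were called lower there and 30.6% higher. A match describes letters in this window and does not show that a protein binds there.

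The 3 members that encode proteins of the box C/D snoRNP, which methylates ribose in ribosomal RNA, had lower transcripts in KYSE-410 with siSHIP2. SNU13, a further protein of this particle, is not a member and was counted with the other 40S factors. It was 111, 110 and 110 CPM with siSHIP2, against 111, 106 and 109 CPM with siCT. NOP58 (chr2:202265716-202303666, plus strand, GENCODE 29), a scaffold protein of the particle, was 99.5, 87.0 and 94.4 CPM with siSHIP2, against 163, 153 and 159 CPM with siCT. These groups were well separated, and the change was the strongest among the members by adjusted p (log2 fold change -0.75 ± 0.06 SE, adjusted p = 8.67e-08). NOP56, its partner scaffold, was 176, 181 and 184 CPM with siSHIP2, against 226, 207 and 222 CPM with siCT (-0.28 ± 0.07, adjusted p = 0.00222). FBL, the methyltransferase itself, was 144, 145 and 159 CPM with siSHIP2, against 169, 161 and 162 CPM with siCT (-0.14 ± 0.05, adjusted p = 0.0354). For FBL the highest siSHIP2 library came close to the lowest siCT library, although the groups did not overlap. That call did not hold under every alternative (adjusted p between 0.00175 and 0.135). Of the 4 genes of the box H/ACA snoRNP, which converts uridine to pseudouridine, 1 was called, where 49.9% of all genes tested were. Its enzyme DKC1 (dyskerin, also a part of telomerase) fell to 137, 119 and 133 CPM with siSHIP2, against 186, 182 and 182 CPM with siCT (-0.50 ± 0.06, adjusted p = 2.65e-06). Its small partners did not pass the test, with log2 fold changes of 0.19 ± 0.08 for GAR1 (adjusted p = 0.0748), 0.14 ± 0.06 for NOP10 (0.0687) and -0.04 ± 0.05 for NHP2 (0.572).

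Of the 14 small subunit genes, with a median log2 fold change of -0.24, 10 fell, where 19.3% of all genes tested were called lower. The 14 build the processome, the particle that assembles on the nascent precursor, or mature the 40S subunit later. RRP9 is the protein that marks the U3 snoRNP, which base-pairs with the precursor. It was 36.7, 31.6 and 35.0 CPM with siSHIP2, against 57.3, 54.8 and 56.3 CPM with siCT, with no overlap (-0.69 ± 0.06, adjusted p = 2.67e-07). WDR43, a subunit of the complex that joins the precursor first, was 131, 118 and 118 CPM with siSHIP2, against 163, 163 and 156 CPM with siCT (-0.39 ± 0.06, adjusted p = 8.66e-05). UTP20, a large scaffold protein of the processome, was 141, 124 and 121 CPM with siSHIP2, against 164, 175 and 155 CPM with siCT (-0.35 ± 0.06, adjusted p = 0.000224). In these 3 genes each siSHIP2 library was below each siCT library. RRP12, which takes part in export of pre-ribosomal particles, was 66.2, 64.3 and 61.4 CPM with siSHIP2, against 84.6, 79.1 and 81.0 CPM with siCT (-0.35 ± 0.06, adjusted p = 0.000133). The other 6 that fell were NOB1 (-0.29 ± 0.06), the endonuclease of the last cut in the small subunit RNA, UTP4 (-0.25 ± 0.06), the helicase gene DDX10 (-0.25 ± 0.07), HEATR1 (-0.24 ± 0.05), LTV1 (-0.15 ± 0.06) and NOP14 (-0.15 ± 0.06). The last 2 calls held in only 9 of 20 alternatives for LTV1 (adjusted p up to 0.126) and 10 of 20 for NOP14 (adjusted p up to 0.143). Not called were TSR1 (-0.07 ± 0.05), WDR75 (-0.07 ± 0.05), UTP15 (-0.04 ± 0.06) and BYSL (0.04 ± 0.06), although UTP15 and WDR75 encode partners of UTP4 and WDR43 in the same processome complex.

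Among the 11 genes of 60S assembly, 7 fell and none rose, where 19.3% of all genes tested were called lower and 30.6% higher. The median of the 11 was -0.21, and all 11 estimates were negative. BOP1, PES1 and WDR12 encode the PeBoW complex, needed to process the large subunit RNA, and 1 of these 3 genes was called. BOP1 was 121, 121 and 116 CPM with siSHIP2, against 176, 163 and 172 CPM with siCT (-0.51 ± 0.05, adjusted p = 3.83e-07). PES1 was 110, 102 and 106 CPM with siSHIP2, against 122, 113 and 112 CPM with siCT, and was not called (-0.12 ± 0.06, adjusted p = 0.0865). WDR12 was 71.0, 65.2 and 67.0 CPM with siSHIP2, against 66.5, 66.0 and 72.7 CPM with siCT, with overlapping groups (-0.01 ± 0.07, adjusted p = 0.9). The difference between these complex members was not tested. RRS1, which helps to place the 5S RNA particle, was 55.1, 45.6 and 54.1 CPM with siSHIP2, against 72.2, 67.9 and 65.1 CPM with siCT (-0.40 ± 0.07, adjusted p = 0.000198). The other 5 that fell ranged from -0.29 ± 0.06 for NOP2, an RNA cytosine methyltransferase, to -0.20 ± 0.06 for MRTO4 (called in 18 of 20 alternatives), with NOP16, PPAN and NIP7 between them. RRP1B (-0.08 ± 0.06) and GNL3 (-0.15 ± 0.07), which encodes the GTPase nucleostemin, were not called.

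Of 6 genes of RNA polymerase I transcription, 4 fell and 1 rose, where 19.3% of all genes tested were called lower and 30.6% higher. POLR1A and POLR1B encode the subunits that form the active centre of the enzyme. POLR1B was 61.0, 52.6 and 56.1 CPM with siSHIP2, against 81.9, 82.4 and 77.9 CPM with siCT (-0.51 ± 0.06, adjusted p = 3.28e-06). POLR1A was 145, 119 and 119 CPM with siSHIP2, against 161, 164 and 156 CPM with siCT, its replicate 1 lying nearer to the controls than the others (-0.33 ± 0.07, adjusted p = 0.000965). UBTF, which encodes the ribosomal DNA binding factor UBF, was 121, 104 and 110 CPM with siSHIP2, against 142, 138 and 134 CPM with siCT (-0.30 ± 0.06, adjusted p = 0.000266). None of these 3 genes overlapped between the groups. TCOF1 encodes treacle, which works with UBF at the ribosomal DNA, and fell by 0.26 ± 0.06 on the log2 scale. POLR1C, whose product also belongs to RNA polymerase III, was not called (0.14 ± 0.07, adjusted p = 0.0868). RRN3 encodes the initiation factor that brings the polymerase to its promoter and is the 1 member called higher. It was 85.6, 84.1 and 83.2 CPM with siSHIP2, against 75.6, 77.8 and 77.2 CPM with siCT (0.13 ± 0.05, adjusted p = 0.0252). That call was lost under TMM scaling (0.04, adjusted p = 0.562) and held in 11 of 20 alternatives, with adjusted p between 0.0174 and 0.666, and 2 pseudogenes named after RRN3 are annotated. The plot of 9 members by library shows this small shift beside the larger ones.

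The most abundant members are nucleolar chaperones, and their decreases were small. NCL, which encodes nucleolin, was 939, 862 and 943 CPM with siSHIP2, against 1102, 1076 and 1052 CPM with siCT (-0.24 ± 0.05, adjusted p = 0.00122). NPM1, which encodes nucleophosmin, was 946, 946 and 1009 CPM with siSHIP2, against 1152, 1076 and 1112 CPM with siCT (-0.20 ± 0.05, adjusted p = 0.00267). Both genes were lower in every siSHIP2 library, and NPM1 counts can be shared with its copies, since 45 pseudogenes carry its name. NOLC1, a chaperone of snoRNPs, fell by 0.17 ± 0.05 on the log2 scale (called in 19 of 20 alternatives), and the helicase gene DDX21 was not called (-0.12 ± 0.06, adjusted p = 0.115). Per kilobase of annotated exon, NPM1 had the highest level of all members in both lines, at 253 CPM per kb in KYSE-410 with siSHIP2 and 291 with siCT. UTP15 was lowest in KYSE-410, at 6.07 CPM per kb with siSHIP2 and 6.26 with siCT.

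MYC itself was not called. Its level was 104, 112 and 100 CPM in KYSE-410 with siSHIP2, against 104, 102 and 102 CPM with siCT (0.04 ± 0.07, adjusted p = 0.654). The groups overlapped, and over the alternatives the estimate lay between -0.06 and 0.08. Of the polyamine enzymes, SRM fell and ODC1 was not called. ODC1, the rate-limiting step of polyamine synthesis, was 346, 390 and 373 CPM with siSHIP2, against 367, 323 and 339 CPM with siCT, with overlap and no call (0.11 ± 0.06, adjusted p = 0.165). SRM, which encodes spermidine synthase, was 78.7, 79.6 and 77.8 CPM with siSHIP2, against 119, 106 and 107 CPM with siCT (-0.49 ± 0.06, adjusted p = 7e-06). The SRM groups were separated by a wide gap, and the spread among its siSHIP2 libraries was small.

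**Figure D2:**
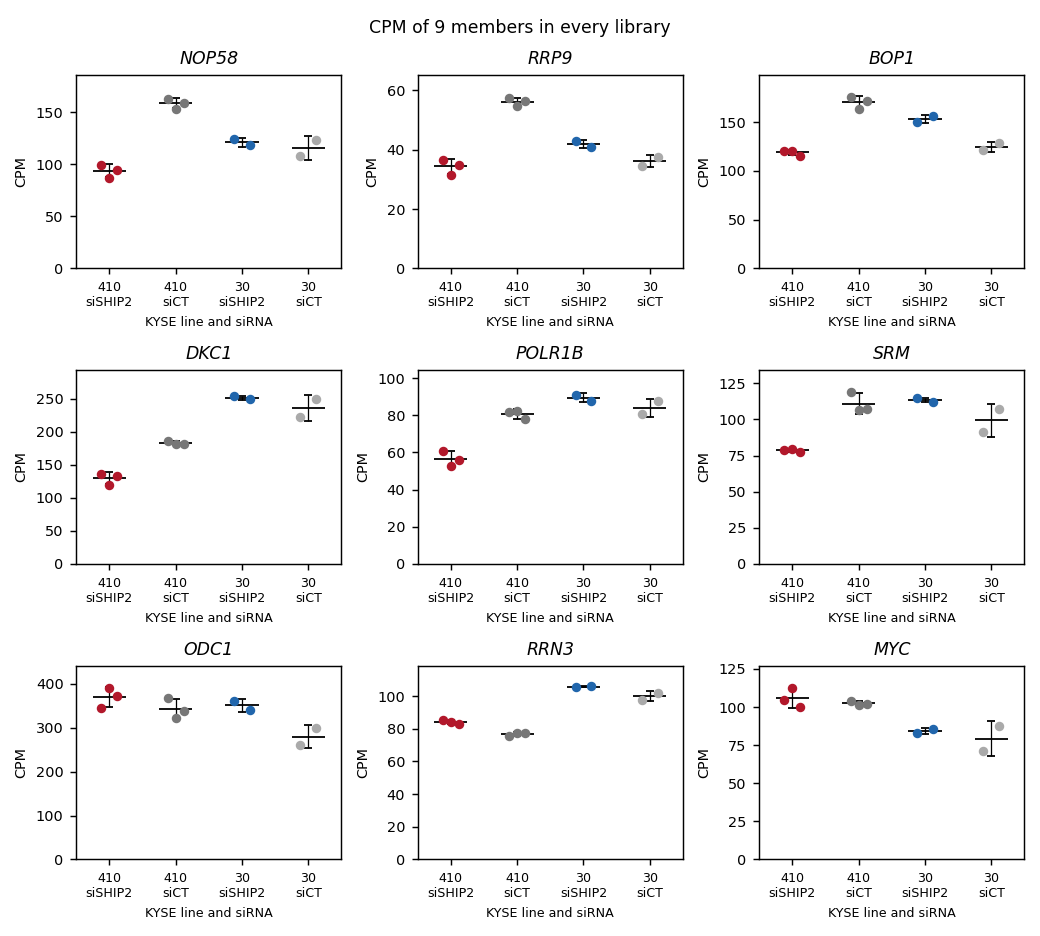
CPM (y axis, from 0) of 9 members in each library (points), with the mean (bar) and SD (whiskers, n = 3 for KYSE-410 and 2 for KYSE-30) of each line and siRNA group on the x axis. NOP58, RRP9, BOP1, DKC1, POLR1B and SRM have their 3 KYSE-410 siSHIP2 points below all siCT points of that line, MYC has overlapping points in both lines, and RRN3 is slightly higher with siSHIP2.

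In KYSE-30 none of the 45 genes was called lower and 3 were called higher, BOP1, ODC1 and PPAN, where 2.36% of all genes tested were called, 1.54% lower and 0.811% higher. A further look at the unadjusted p found 22 members under 0.05, where 3653 of the 20466 genes tested were. The members' median log2 fold change was 0.12, against 0 over all genes, and 43 of 45 estimates were positive, the exceptions being HEATR1 and GAR1. Both siSHIP2 libraries were above both siCT libraries for 25 members and below them for 1, HEATR1, where 23.0% of all genes lay entirely above and 21.6% entirely below. Summed over members, the level was 9445 ± 270 CPM with siSHIP2 and 8688 ± 573 CPM with siCT (SD, n = 2 each).

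BOP1 was 151 and 156 CPM in KYSE-30 with siSHIP2, against 121 and 129 CPM with siCT (0.29 ± 0.06, adjusted p = 0.0208). ODC1 was 361 and 340 CPM with siSHIP2, against 261 and 298 CPM with siCT (0.33 ± 0.08, adjusted p = 0.0393). PPAN, a 60S assembly factor, was 40.7 and 39.8 CPM with siSHIP2, against 31.5 and 33.2 CPM with siCT (0.31 ± 0.07, adjusted p = 0.0406). For all 3 genes the groups were separate, but 59.8% of the exon bases of PPAN also belong to same-strand genes, P2RY11 and the readthrough PPAN-P2RY11. These calls depended on single libraries: without siCT replicate 1 no member was called and the median was 0.05, and without siCT replicate 2, 8 were called higher and the median was 0.23. No member was called either without siSHIP2 replicate 1, without siSHIP2 replicate 2, or when the 4 KYSE-30 libraries were fitted alone.

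The members described next were not called. MYC was 82.7 and 85.7 CPM with siSHIP2, against 71.1 and 87.4 CPM with siCT, and its siCT libraries enclosed both siSHIP2 values (0.09 ± 0.08, adjusted p = 0.614). NOP58 was 124 and 118 CPM with siSHIP2, against 108 and 124 CPM with siCT (0.07 ± 0.07, adjusted p = 0.711). DKC1 was 254 and 249 CPM with siSHIP2, against 222 and 250 CPM with siCT (0.09 ± 0.07, adjusted p = 0.541). In these 3 genes siCT replicate 2 reached the level of the siSHIP2 libraries. SRM was 115 and 112 CPM with siSHIP2, against 91.5 and 107 CPM with siCT (0.19 ± 0.08, adjusted p = 0.18). POLR1B was 91.1 and 87.6 CPM with siSHIP2, against 80.5 and 87.4 CPM with siCT (0.09 ± 0.07, adjusted p = 0.571). RRP9 was 43.0 and 41.0 CPM with siSHIP2, against 34.7 and 37.6 CPM with siCT (0.21 ± 0.08, adjusted p = 0.15). These 3 genes were higher in both siSHIP2 libraries, POLR1B only by a small margin, and none was called.

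The chaperones, FBL and the polymerase factors were not called in KYSE-30 either. NCL was 1432 and 1359 CPM with siSHIP2, against 1250 and 1326 CPM with siCT (0.12 ± 0.06). NPM1 was 1624 and 1549 CPM with siSHIP2, against 1556 and 1558 CPM with siCT (0.03 ± 0.06), and FBL was 204 and 191 CPM, against 181 and 190 CPM with siCT (0.09 ± 0.06). Of these, NPM1 overlapped between the groups. POLR1A was 206 and 179 CPM with siSHIP2, against 167 and 171 CPM with siCT (0.18 ± 0.09). UBTF was 165 and 163 CPM with siSHIP2, against 156 and 164 CPM with siCT (0.03 ± 0.07), and RRN3 was 106 and 106 CPM, against 97.8 and 102 CPM with siCT (0.08 ± 0.06). UBTF was the one of these 3 whose groups overlapped. By role, medians in KYSE-30 ran from 0.08 in the small subunit genes to 0.19 in 60S assembly and in MYC with the polyamine enzymes.

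**Figure D3:**
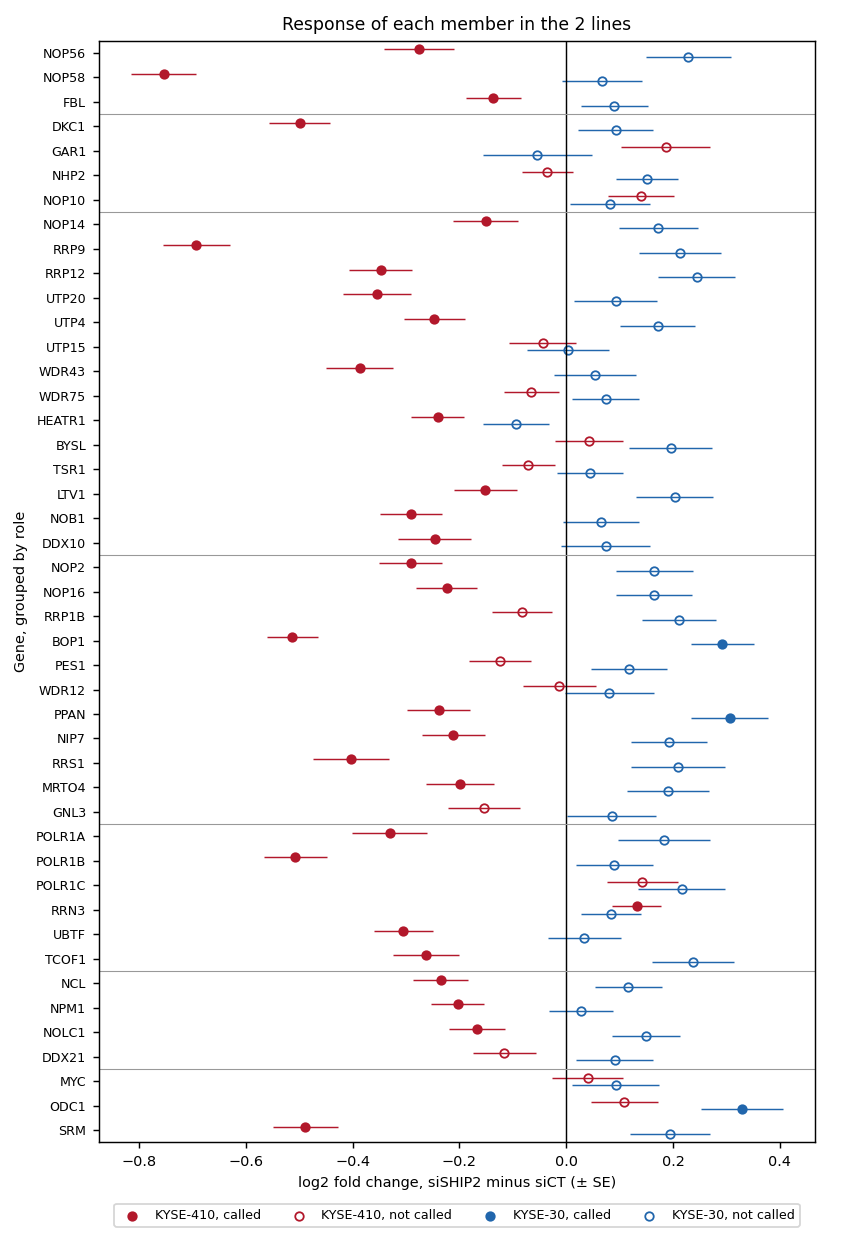
Log2 fold change of siSHIP2 over siCT (x axis, points with SE bars) for each member (y axis, grouped by role) in KYSE-410 (red) and KYSE-30 (blue); filled points are called at an adjusted p under 0.05. Of the 45 genes, 37 have their KYSE-410 point left of 0 and their KYSE-30 point right of 0.

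The difference between the lines was tested itself, as the KYSE-410 effect minus the KYSE-30 effect. It was negative and called for 29 members and positive and called for none, where 12.9% of all genes tested were called negative and 19.5% positive. The median was -0.34, against 0.06 over all genes. BOP1 and PPAN were called in opposite directions in the lines. The difference was -0.81 ± 0.08 for BOP1 (adjusted p = 3.49e-06) and -0.54 ± 0.09 for PPAN (adjusted p = 0.000389). RRP9 gave -0.90 ± 0.10 (adjusted p = 1.17e-05), and NOP58 gave -0.82 ± 0.10 (adjusted p = 1.83e-05). These genes were called lower in KYSE-410 and had positive estimates in KYSE-30. SRM gave -0.68 ± 0.10 (adjusted p = 8.68e-05), DKC1 -0.59 ± 0.09 (adjusted p = 0.000156) and POLR1B -0.60 ± 0.09 (adjusted p = 0.000193). By role, differences were called for 3 of 3 box C/D genes, 1 of 4 box H/ACA genes, 9 of 14 small subunit genes, 8 of 11 60S genes, 4 of 6 polymerase genes, 3 of 4 chaperones and, of MYC and the polyamine enzymes, SRM alone. MYC gave -0.05 ± 0.10 (adjusted p = 0.742) and ODC1 -0.22 ± 0.10 (adjusted p = 0.103). There were 23 calls without KYSE-30 siCT replicate 1 and 34 without its replicate 2.

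Signs were opposite in the lines for most members, negative in KYSE-410 and positive in KYSE-30 for 37 of 45 (82.2%), against 18.8% of all genes tested. Of the KYSE-30 estimates only 3 were called, and all of them share siCT replicate 1, which was below replicate 2 in 44 of 45 members. Over the alternatives the lowest KYSE-30 estimate was below 0 for some members, such as NOP58 (-0.03) and GNL3 (-0.09). For others, such as BOP1 (0.25) and PPAN (0.27), it stayed positive. Within the set, the estimates in the lines were correlated weakly (Pearson's r = -0.13, Spearman's rho = -0.15 over the 45 genes, which share libraries and are not independent). Over all genes tested Pearson's r was 0.08. KYSE-30 had INPPL1 lowered less than KYSE-410 (difference -0.75 ± 0.11, adjusted p = 7.63e-05), and the extent of the knockdown and the line cannot be told apart.

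In the control libraries the lines differed in most of these genes, in both directions. With siCT, 19 members were called higher in KYSE-410 than in KYSE-30 and 19 lower, where 75.9% of all genes tested were called, 37.2% higher and 38.7% lower. All KYSE-410 siCT libraries were above both KYSE-30 siCT libraries for 18 members and below them for 20, where 40.5% of all genes lay entirely above and 42.0% entirely below. The median was -0.07, against -0.02 over all genes, and 0.0036 without KYSE-30 siCT replicate 2. DDX10, which unwinds precursor RNA, stood at 96.4, 90.6 and 90.7 CPM in KYSE-410, against 29.2 and 36.6 CPM in KYSE-30 (log2 difference 1.47 ± 0.08, adjusted p = 2e-11). UTP20 was 164, 175 and 155 CPM in KYSE-410, against 95.4 and 105 CPM in KYSE-30 (0.71 ± 0.07, adjusted p = 1.04e-07). RRP9 was 57.3, 54.8 and 56.3 CPM in KYSE-410, against 34.7 and 37.6 CPM in KYSE-30 (0.62 ± 0.07, adjusted p = 4.8e-07). These genes did not overlap between the lines. WDR12 did not either, at 66.5, 66.0 and 72.7 CPM in KYSE-410, against 41.1 and 48.0 CPM in KYSE-30 (0.61 ± 0.08, adjusted p = 1.68e-06).

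The members furthest the other way were called lower in KYSE-410. WDR75 was 83.5, 80.3 and 82.2 CPM in KYSE-410, against 166 and 187 CPM in KYSE-30 (-1.09 ± 0.06, adjusted p = 2.43e-11). TCOF1 was 247, 236 and 227 CPM in KYSE-410, against 391 and 465 CPM in KYSE-30 (-0.85 ± 0.07, adjusted p = 8.12e-09). NOP16 was 71.8, 69.6 and 70.0 CPM in KYSE-410, against 119 and 133 CPM in KYSE-30 (-0.82 ± 0.06, adjusted p = 4.7e-09). Each of these genes was lower in all KYSE-410 siCT libraries than in either KYSE-30 siCT library. The same was true of NOLC1, at 240, 234 and 224 CPM in KYSE-410, against 387 and 436 CPM in KYSE-30 (-0.82 ± 0.06, adjusted p = 1.27e-09).

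All 4 nucleolar chaperone and helicase genes were lower in KYSE-410 with siCT, while MYC and ODC1 were higher. SRM was 119, 106 and 107 CPM in KYSE-410, against 91.5 and 107 CPM in KYSE-30, and its call (0.16 ± 0.07, adjusted p = 0.0462) had overlapping groups and held in 11 of 20 alternatives (adjusted p up to 0.608). MYC was 104, 102 and 102 CPM in KYSE-410, against 71.1 and 87.4 CPM in KYSE-30 (0.38 ± 0.07, adjusted p = 0.000224). Within a complex the lines could differ in both directions: of box H/ACA proteins, NOP10 (0.55 ± 0.07) and GAR1 (0.30 ± 0.09) were higher in KYSE-410, and NHP2 (-0.54 ± 0.05) and DKC1 (-0.36 ± 0.06) were lower. Of the PeBoW genes, WDR12 and BOP1 (0.44 ± 0.05) were higher, and PES1 (-0.53 ± 0.06) was lower. Anything else that differs between the lines and their handling is part of this comparison.

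**Figure D4:**
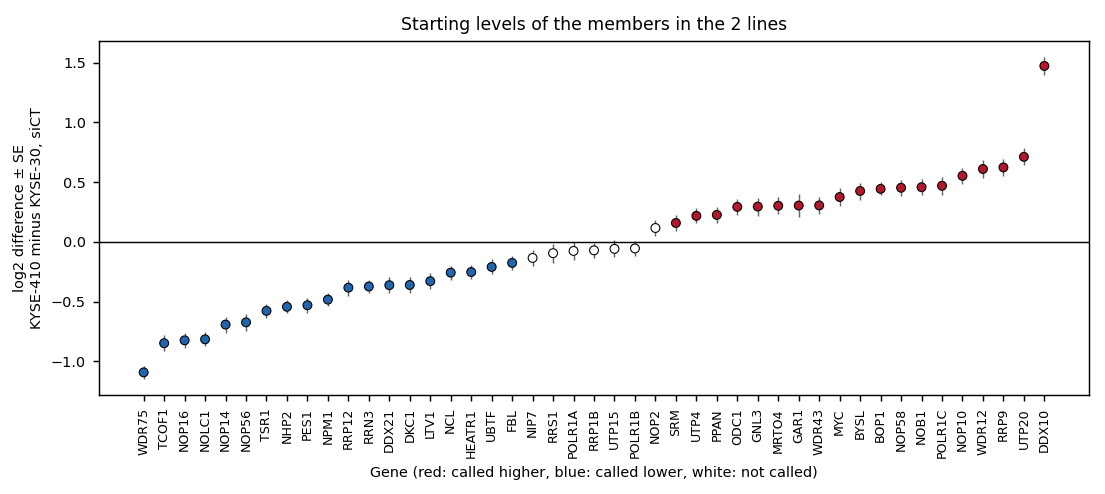
Log2 difference between KYSE-410 and KYSE-30 with siCT (y axis, points with SE bars) for each member (x axis, in order of the difference); red is called higher in KYSE-410, blue called lower and white not called. The members spread from -1.09 for WDR75 to 1.47 for DDX10, with 19 called on each side.

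Outside the members, further factors of the same pathway were counted in KYSE-410. Of all genes tested in this line, 19.3% were called lower and 30.6% higher. In these lists the direction was mixed. Of 41 other 40S biogenesis factors 11 fell and 10 rose, and of 50 other 60S factors 15 fell and 14 rose, with medians of 0.05 and -0.03 against 0.07 over all genes tested. Without KYSE-410 siCT replicate 3, 9 of the 60S factors were higher and 15 lower. TMM scaling gave 15 lower and 6 higher of the 40S factors and 24 lower and 8 higher of the 60S factors. NOL6, a processome protein, was 65.9, 59.4 and 62.4 CPM with siSHIP2, against 95.6, 95.2 and 90.2 CPM with siCT (-0.58 ± 0.06, adjusted p = 1.35e-06). DHX37, a helicase of the processome, fell by 0.56 ± 0.06 on the log2 scale, whereas UTP3, another processome factor, rose by 0.49 ± 0.05. Of the 60S factors, ZNF622 (0.85 ± 0.06), NOP53 (0.63 ± 0.07) and EFL1 (0.60 ± 0.07) had the smallest adjusted p and all rose. ZNF622 was 56.9, 67.1 and 63.2 CPM with siSHIP2, against 33.7, 34.7 and 33.9 CPM with siCT. ZNF622 and EFL1 act on the 60S subunit in the cytoplasm, unlike most of the members. Of 17 other RNA polymerase I factors 5 fell, among them BAZ2A (-0.33 ± 0.05), and 3 rose, among them POLR2K (0.70 ± 0.06), a subunit shared by all 3 nuclear polymerases, and the termination factor TTF1 (0.46 ± 0.07). The median of that list was -0.02, and TMM scaling gave 7 lower and 3 higher. Of 22 RNA polymerase III factors 3 fell and 8 rose (median 0.08), and TMM scaling gave 5 each way. GTF3A, the factor specific to the 5S RNA gene, was 46.5, 38.3 and 43.5 CPM with siSHIP2, against 84.1, 82.7 and 86.6 CPM with siCT (-0.97 ± 0.06, adjusted p = 1.05e-08). GTF3C3 (0.56 ± 0.04), called higher, and POLR3K (-0.73 ± 0.08), called lower, had the next smallest adjusted p in that list.

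Genes that work with MYC or under it were also counted in KYSE-410, where 19.3% of all genes tested were called lower and 30.6% higher. Of 15 measured genes of the MYC network (of 16 listed) 9 rose and 4 fell (median 0.21), and TMM scaling gave 6 higher and 5 lower. The count lower was 2 without KYSE-410 siCT replicate 2 and 2 without KYSE-410 siSHIP2 replicate 3. MXD1 encodes a protein that competes with MYC for its partner MAX and represses E-box genes, and it was 37.3, 43.4 and 37.9 CPM with siSHIP2, against 23.0, 23.7 and 25.7 CPM with siCT (0.69 ± 0.07, adjusted p = 6.16e-07). MNT, a further repressor of the family, was 31.7, 36.0 and 30.2 CPM with siSHIP2, against 20.5, 23.1 and 24.6 CPM with siCT (0.50 ± 0.08, adjusted p = 9.57e-05). MXD3, of the same family, went the other way, with 96.8, 89.4 and 96.6 CPM with siSHIP2, against 153, 142 and 152 CPM with siCT (-0.65 ± 0.05, adjusted p = 7.03e-08). The groups of these 3 genes did not overlap. Of 24 measured other MYC growth targets (of 25 listed) 17 fell and 2 rose, with a median of -0.20. TMM scaling gave 19 lower and 1 higher. The count higher was also 1 without any 1 of the KYSE-410 siCT libraries or without siSHIP2 replicate 2 or 3. EIF4A1, an RNA helicase of translation initiation, was 529, 459 and 514 CPM with siSHIP2, against 856, 790 and 818 CPM with siCT (-0.71 ± 0.06, adjusted p = 7.16e-08). The amino acid transporter gene SLC7A5 (-0.67 ± 0.07) and the importin gene IPO4 (-0.60 ± 0.07) also fell. Of 18 genes of nucleotide synthesis 11 fell and 2 rose, with a median of -0.25, and TMM scaling gave 15 lower and 0 higher. Those named by adjusted p were PFAS (-0.49 ± 0.06) of purine synthesis, IMPDH2 (-0.46 ± 0.06) of guanine nucleotide synthesis and CTPS1 (-0.42 ± 0.06), which makes cytidine triphosphate. Of 14 other polyamine genes 6 rose and 2 fell (median 0.02), and TMM scaling gave 4 higher and 3 lower. The ones that rose include OAZ2 (0.61 ± 0.06), an antizyme that marks ODC1 protein for degradation, and AZIN2 (0.61 ± 0.12), an antizyme inhibitor, and DHPS (-0.39 ± 0.06), which uses spermidine to make hypusine, fell.

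**Figure D5:**
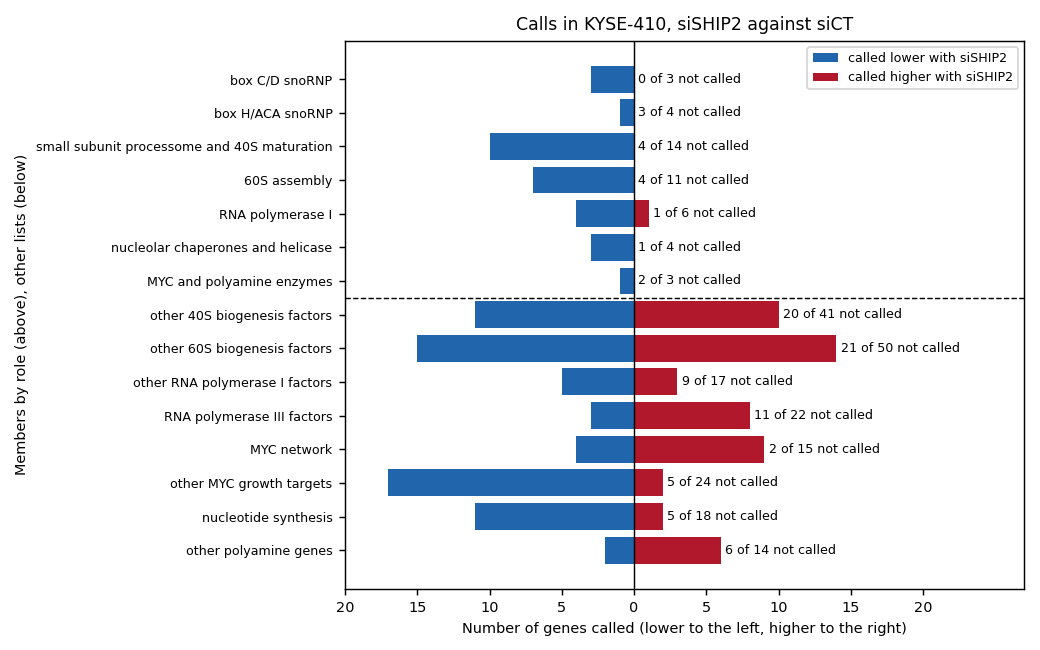
Number of genes called lower (bars to the left) and higher (bars to the right) with siSHIP2 in KYSE-410, for the members by role (above the dashed line) and for other lists of the same pathway (below it), with the number not called beside each bar. The members' bars lie on the left except for RRN3, and the other 40S and 60S factors have bars of like length on both sides.

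In KYSE-30, 3 of the 201 measured genes of these lists had a call, where 2.36% of all genes tested were called and 0.811% were called higher. All 3 were higher: DHX37 (0.31 ± 0.08, adjusted p = 0.0469), GRWD1 (0.32 ± 0.07, adjusted p = 0.0221) and NOC2L (0.27 ± 0.06, adjusted p = 0.0406). DHX37 was 89.0 and 87.1 CPM with siSHIP2, against 68.4 and 73.1 CPM with siCT, while in KYSE-410 it was called lower (difference between the lines -0.88, adjusted p = 1.63e-05). The chaperone gene GRWD1 was 154 and 154 CPM with siSHIP2, against 121 and 124 CPM with siCT. These calls depended on the processing. Neither list had a call without KYSE-30 siCT replicate 1, without either KYSE-30 siSHIP2 library, with no filter or with the replicate block. Without KYSE-30 siCT replicate 2 there was 1 call among the 40S factors and 3 among the 60S factors. TMM scaling, relative log expression scaling, edgeR and the fit of only the KYSE-30 libraries left 0 calls among the 40S factors and 1 among the 60S factors.

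The members lie on 18 chromosomes. A subset of 10 (NOP56, NOP58, DKC1, WDR43, TSR1, PPAN, GNL3, POLR1C, NCL and ODC1) carries small nucleolar or Cajal body RNA genes, 29 in all, within the annotated gene. Of these hosts, NOP56, NOP58, DKC1, WDR43, PPAN and NCL fell in KYSE-410 and the other 4 were not called. Over all genes tested, 19.3% were called lower in that line. Same-strand genes also cover 54.4% of the exon bases of NOP2 and 34.8% of those of LTV1, and because the strand setting of the counting is not given in the sources used here, opposite-strand neighbours such as RMND5B at NHP2 (27.4% of exon bases) cannot be set apart either.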

How the data were processed

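RNA of KYSE-410 and KYSE-30 cells was measured in 10 libraries made with the Ovation Solo kit, per the labels. The submitters' processing notes name STAR 2.5.3a, HTSeq and the hg38 build. The authors deposited CPM for 58302 genes. Each value is a whole multiple (within 0.1 of a step) of a step, and a library holds about 20.0 M such steps. That reads were scaled and rounded before conversion is inferred from the values.

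Because the values are CPM and not counts, log2(CPM + 1) was fitted for the 20466 genes that reached 0.5 CPM in 2 or more libraries with limma 3.58.1 in R 4.3.3 (trend, 4 group means, all 10 libraries), with Benjamini-Hochberg adjustment over all genes tested and a threshold of 0.05. Fold changes are on that scale and understate those of low genes slightly. The contrasts were the siSHIP2 effect within each line, the difference between those effects, and the lines compared in their siCT libraries. edgeR 4.0.16 on whole numbers recovered from the steps (100% of values whole), other scalings, filters and pseudocounts, and leaving out each library were alternatives. The procedure was tested on simulated data. Replicate libraries differed by more than sampling noise. The members, roles, other lists and markers were chosen with earlier results of these data known, and no list was tested as a set. All 45 members are accounted for. Values in every library are given for the 10 called members with the smallest adjusted p in KYSE-410 and any called the other way, each called member in KYSE-30, the 6 strongest differences between lines, and several genes whatever their p, and for other lists up to 3 called genes of each line with the smallest adjusted p are named. Gene positions come from GENCODE 29 (GRCh38) and promoter sequences from RefSeq (GRCh38.p14). Figures and tables used Python 3.11.15 with numpy 2.4.6, pandas 2.3.3 and matplotlib 3.10.9.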

Additional observations from a re-analysis of the deposited data

Results flagged for a closer look

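The response to siSHIP2 differed between KYSE-410 and KYSE-30 by a test of the difference itself for 29 of the 45 genes, where 12.9% of all genes tested were called negative. The KYSE-410 effect minus the KYSE-30 effect was negative for each of the 29, and RRP1B, 1 of them, was not called in either line alone. The log2 difference between the responses was -0.81 for BOP1, -0.90 for RRP9, -0.82 for NOP58, -0.68 for SRM, -0.59 for DKC1 and -0.60 for POLR1B. No group had 4 or more libraries, so no library could be tested as an outlier within its group.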

How the results depend on the processing

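The decrease in KYSE-410 kept its count within 24 to 31 members lower when each library was left out. Of the 29 genes, 24 were called under every alternative, the exceptions being FBL, NOP14, LTV1, MRTO4 and NOLC1. Not every alternative can move the estimate of the siSHIP2 effect within a line. Leaving out a library of the other line, another filter, only the libraries compared and the replicate blocks change its SE and adjusted p alone. Counts of alternatives in which a call held include these. TMM and relative log expression scaling gave 36 lower, upper quartile scaling 32 and edgeR 35. The count of members higher in KYSE-410 was 0 under TMM, relative log expression and upper quartile scaling and with edgeR, 3 with only the KYSE-410 libraries, and 0 to 4 with each library left out. The median in KYSE-410 was -0.31 under relative log expression scaling and with edgeR. In KYSE-30 the count of members higher was 0 with no filter on low values and with only the KYSE-30 libraries, and 0 to 8 with each library left out; it was 1 without KYSE-410 siCT replicate 2, siCT replicate 3 or siSHIP2 replicate 3, and the median ran between 0.0483 and 0.233. None of the 3 KYSE-30 calls held under every alternative. For the difference between the lines, 23 of 29 calls held under every alternative, with 23 to 34 when each library was left out. With siCT the median between the lines was -0.147 without KYSE-30 siCT replicate 1 and 0.0036, with the opposite sign, without its replicate 2. The causes of these shifts were not tested.

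Deviations of same-numbered libraries from their group means correlated at 0.04, -0.16 and 0.09 in KYSE-410 and at -0.12 in KYSE-30. With 2 libraries in each KYSE-30 group the deviations mirror each other, so the correlations there differ only in sign. Whether replicate numbers pair the libraries cannot be decided from these values. With the replicate number as a block, 26 members were lower and 1 higher in KYSE-410, 0 were called in KYSE-30 and 27 differed between the lines. Over all genes 71 were called in KYSE-30 against 482 without the block. The blocked comparison of the lines with siCT is set at the level of replicate 1 of each line, not at the group means. Its median of 0.0142 is therefore not the same quantity as the medians given above. With the KYSE-30 numbers crossed, an alternative chosen after seeing the data, the block gave 29 lower and 2 higher in KYSE-410 and 2 higher in KYSE-30. It gave 437 calls in KYSE-30 over all genes. The siCT median between the lines was then 0.0149, again at the level of siCT replicate 1. Both blocked fits count among the alternatives for the lines with siCT.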
